A study of Mus musculus with 8 samples.

Results

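The respiratory chain and ATP synthase genes encode the enzymes of the inner mitochondrial membrane that oxidise NADH and succinate, pump protons and make ATP. They were taken by symbol: all genes beginning with Ndufa, Ndufb, Ndufc, Ndufs or Ndufv (not Ndufaf), Uqcr, Cox4 to Cox8 or Atp5, together with Sdha, Sdhb, Sdhc, Sdhd, Cycs and Cyc1. Of the 18193 genes measured by a probe set with a single gene name, 84 met this rule: 36 of complex I, 4 of complex II, 9 of complex III, 17 of complex IV and 17 of complex V (the ATP synthase), with Cycs, which encodes the mobile electron carrier cytochrome c, counted apart. Ndufs6, Ndufa11 and Cox7b had no such probe set and were not analysed here.

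RNA was measured in LSK cells, the haematopoietic stem and progenitor cells of mouse bone marrow, which were sorted as low for lineage markers, positive for Sca1 and high for cKit. There were 8 arrays of C57BL/6 mice, 4 wild type and 4 heterozygous for Jak2V617F, the activated kinase of myeloproliferative neoplasms, and the comparison asked what the mutant allele changed in these cells. Each array held the cells of a separate mouse, per the labels, and neither the age of the mice nor the way the allele was introduced is stated there. By Xist and Y-linked transcripts 2 wild type arrays and 1 mutant array had female expression. The array medians lay between 7.06 and 7.15, the lowest correlation between any pair of arrays was 0.991, and the number of arrays limits the precision. Values are log2 intensities, and every change is mutant minus wild type, so that 1 unit is a doubling. Kit, the receptor used in the sort, read 12.65 in wild type and 12.67 in mutant cells (means, n = 4 each), and lymphoid markers were not uniformly near background. The T and B cell genes Cd3e and Cd79a read 7.01 and 6.51 in wild type cells, while Cd4 read 8.78, Il7r 9.41, Cd79b 11.76 and Nkg7 13.34.

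In the respiratory chain, complex I takes electrons from NADH and complex II from succinate, which it oxidises as a step of the citric acid cycle. Complex III passes them to cytochrome c, complex IV to oxygen, and the ATP synthase uses the proton gradient. Quiescent haematopoietic stem cells are known for low respiration, which rises as progenitors begin to divide and mature. Nearly all subunits are encoded in the nucleus and the remainder in mitochondrial DNA.

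No respiratory chain or ATP synthase gene was called different between the genotypes. Of 84 members 0 passed limma's adjusted p of 0.05, against 0.165% of all genes (30 of 18193). With an unadjusted limma p under 0.05 there were 10 members higher in mutant cells and 1 lower. Over all genes these shares were 11.9% and 5.23%, so the members' 10 of 84 lay at the background of all genes. The median change of the members was 0.05, as it was over all genes. More of them lay above 0, however: 69 of 84 members (82.1%), against 62.6% of all genes. After each array was centred on its own median, 60 of 84 members and 58.4% of all genes lay above 0. With the probe sets of each gene averaged, 61 of 84 members and 62.7% of all genes did so.

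The members were measured closely. Their median residual SD was 0.071, against 0.152 for all genes, and the median SE of a change was 0.070. For 55 of the 84 members the whole 95% interval of the change lay within a factor of 1.2 in either direction (0.263 on the log2 scale). Of all 18193 genes 4005 did so. Most members read close to the top of the scale, with a median level of 13.59 on arrays whose highest value was 15.75. How far bright probe sets compress a change was not tested. Among the 74 members with a mean of 12 or more, 82.4% lay above 0 with a median change of 0.05. This level was chosen after the values were seen. Among all 3365 genes at that level 48.9% lay above 0, with a median of -0.0039. The interval lay within a factor of 1.2 for 54 of these 74 members and 1754 of these 3365 genes. Their median residual SDs were 0.0647 and 0.0909. At that level an unadjusted limma p under 0.05 with a higher value was found in 6 of 74 members and 161 of 3365 genes. With a lower value it was found in 0 and 195. All mutant arrays lay above all wild type arrays in 7 of 74 and 149 of 3365, and below them in 0 and 209.

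**Figure D1:**
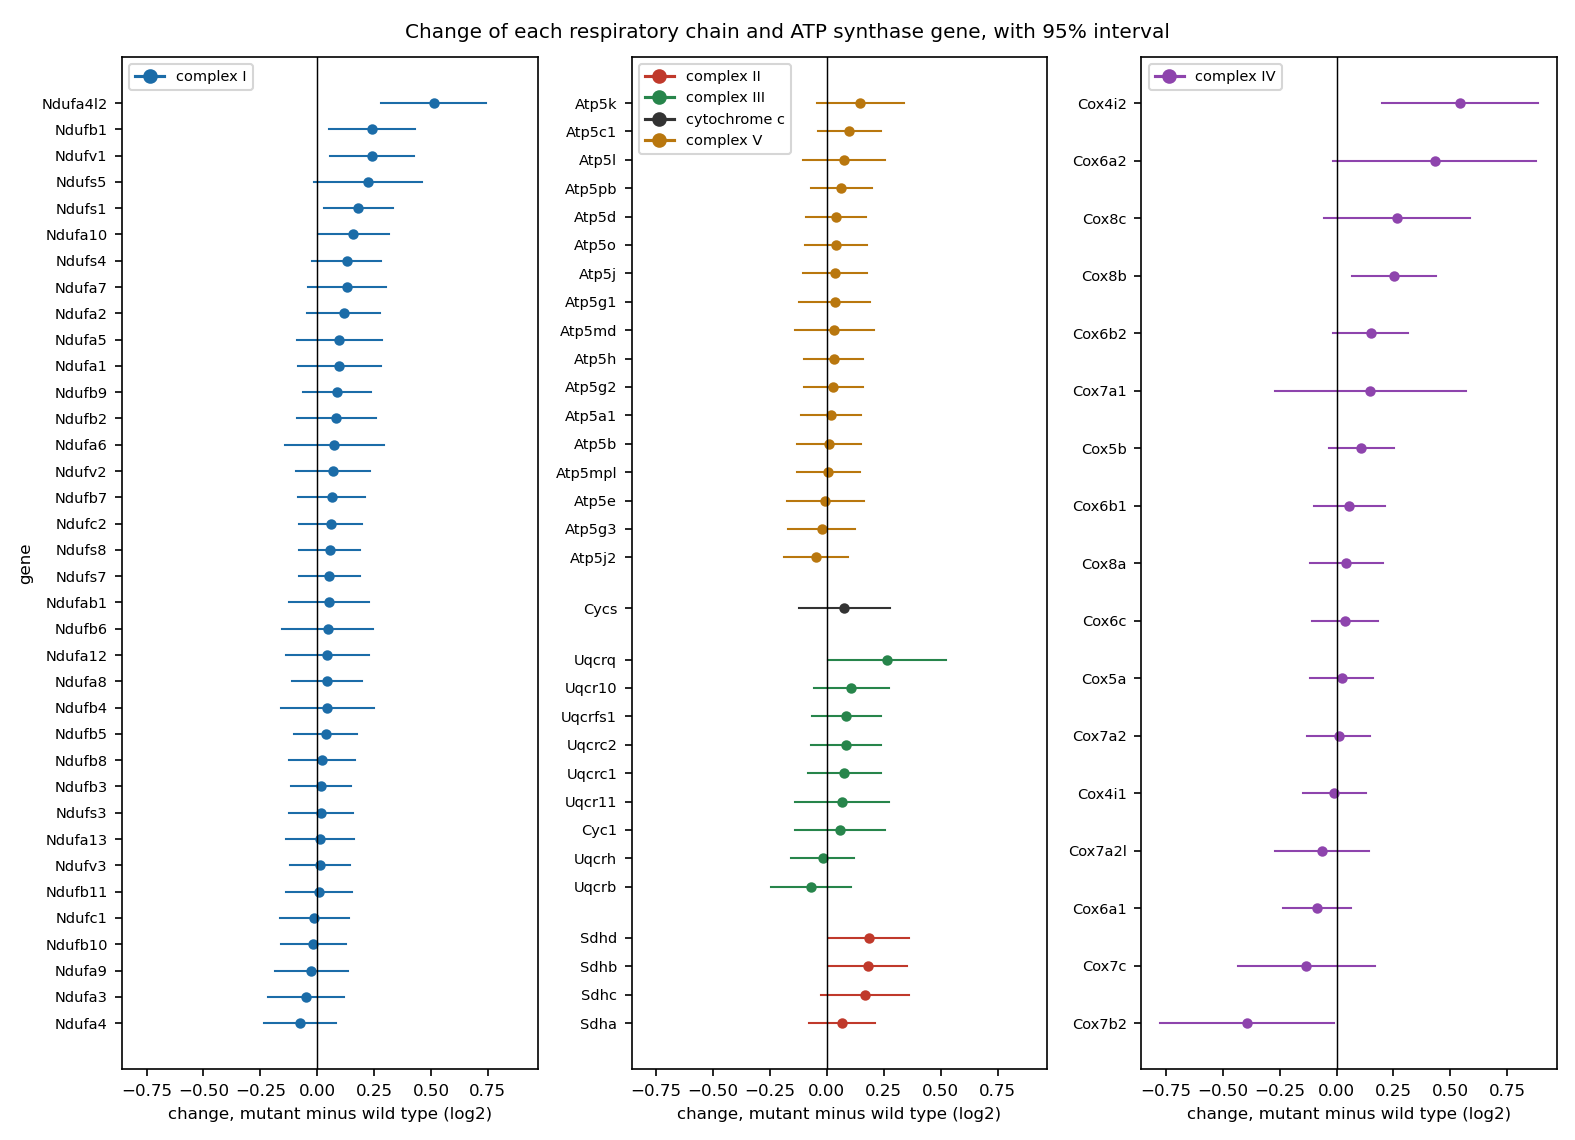
Change of each of the 84 genes (mutant minus wild type, log2, horizontal axis) with its 95% interval from limma, with complexes I to V and cytochrome c coloured apart. The intervals of 10 genes lie above 0 and that of 1 lies below, and the points farthest from 0 belong to Cox4i2 (0.54), Ndufa4l2 (0.51), Cox6a2 (0.43) and Cox7b2 (-0.39).

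Complex I, the NADH dehydrogenase, had a median change of 0.05, and 31 of its 36 genes lay above 0. The 9 measured genes named Ndufs or Ndufv, a group set by symbol and not by arm of the complex, all lay above 0, between 0.01 and 0.24. Ndufv1, which encodes the subunit that binds NADH and its flavin, read 13.21, 13.21, 13.08 and 13.28 in the wild type arrays and 13.47, 13.34, 13.34 and 13.59 in the mutant arrays. All mutant arrays of Ndufv1 lay above all wild type arrays, by 0.24 ± 0.082 (SE) or 1.18-fold, with a limma adjusted p of 0.215. The 3 probe sets of Ndufv1 gave 0.24, 0.24 and 0.17.

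Ndufs1, the largest iron-sulfur subunit, read 12.41, 12.49, 12.39 and 12.41 in wild type and 12.66, 12.51, 12.58 and 12.67 in mutant arrays. These groups did not overlap either, and the change was 0.18 ± 0.067 (SE; limma adjusted p = 0.231). Across complex I the mutant arrays lay above all wild type arrays in 7 of 36 genes: Ndufv1, Ndufs1, Ndufs4, Ndufs8, Ndufa10, Ndufb1 and Ndufa4l2. Of all 84 members 9 did so and 0 lay entirely below, against 6.82% and 3.33% of all genes. Ndufs8, with 6 probe sets, and Ndufa7, with 5, lay above 0 in each of them, by 0.05 to 0.14 and by 0.08 to 0.23 (both were picked out after their values were seen). Ndufab1, also with 5, gave 0.05 and 0.05 but also -0.15, -0.31 and -0.01. Among all members 85 further probe sets read above 5.37, the highest value of the Y-linked gene Eif2s3y in arrays with female expression. Some of them read under 6.54, the highest Xist value in arrays with male expression, and so near background. Of the 85, 58 had the sign of the chosen probe set and 55 lay above 0, with a median change of 0.05.

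Ndufb1, an accessory subunit of the membrane arm, read 8.88, 8.86, 8.76 and 8.87 in wild type and 9.03, 8.91, 9.17 and 9.22 in mutant arrays. Its change was 0.24 ± 0.083 (SE; limma adjusted p = 0.22). The other Ndufa, Ndufb and Ndufc genes were flatter: leaving out Ndufa4l2, 21 of 26 lay above 0 and their median was 0.05. The lowest change in the complex was that of Ndufa4, now known as a subunit of complex IV, at -0.08 ± 0.069 (SE; limma adjusted p = 0.582). The singly named probe set of Ndufb4 read 5.18 and 5.22 in the genotypes and so gave no usable level.

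Succinate dehydrogenase, complex II, stood highest of the complexes: all 4 of its genes lay above 0, with a median change of 0.17. Sdha encodes the flavoprotein that oxidises succinate, Sdhb the iron-sulfur protein, and Sdhc and Sdhd the membrane anchors. Sdhd read 12.54, 12.74, 12.70 and 12.62 in wild type and 12.89, 12.72, 12.80 and 12.93 in mutant arrays. Mutant array 2 lay within the wild type range, and the change was 0.19 ± 0.078 (SE; limma adjusted p = 0.271).

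Sdhb read 12.98, 13.13, 12.92 and 13.04 against 13.17, 13.12, 13.16 and 13.33, a change of 0.18 ± 0.077 (SE; limma adjusted p = 0.283). Wild type array 2 exceeded mutant array 2, so Sdhb also overlapped. Sdhc differed by 0.17 ± 0.085 and Sdha by 0.07 ± 0.063 (SE), with limma adjusted p of 0.341 and 0.593. A further probe set of Sdhc gave 0.17. Further probe sets of Sdhd and Sdha at similar brightness gave -0.02 and -0.06, and over all 9 probe sets of the complex the median was 0.11.

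Complex III, the cytochrome bc1 complex, had a median of 0.08, and 7 of its 9 genes lay above 0. Uqcrq, a small accessory subunit, read 12.33, 12.36, 12.29 and 12.53 in wild type and 12.76, 12.49, 12.43 and 12.89 in mutant arrays. Mutant arrays 1 and 4 were high while 2 and 3 overlapped wild type, and the change was 0.27 ± 0.11 (SE; limma adjusted p = 0.283). The Rieske iron-sulfur protein gene Uqcrfs1 differed by 0.09, Uqcr10 by 0.11 and the core protein gene Uqcrc2 by 0.08, with limma adjusted p from 0.463 to 0.527. Uqcrb was lowest at -0.07. Without mutant array 1 the median of complex III was 0.04. Cycs read 13.41, 13.44, 13.42 and 13.52 in wild type and 13.64, 13.41, 13.36 and 13.67 in mutant arrays, again with arrays 1 and 4 apart, a change of 0.08 ± 0.088 (SE; limma adjusted p = 0.665).

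Complex IV, cytochrome c oxidase, held both the highest and the lowest changes, and these came from its alternative isoforms. Several of its nuclear subunits exist as a widespread form and a form known from particular tissues: Cox6a2, Cox7a1 and Cox8b from heart and skeletal muscle, Cox4i2 from lung, Cox6b2 from testis. Ndufa4l2, induced by hypoxia, is the comparable relative of Ndufa4. In these 6 alternative isoforms 6 of 6 changes lay above 0, from 0.15 to 0.54, with a median of 0.34. The testis forms Cox8c and Cox7b2 have no partner in this comparison; with them 7 of 8 lay above 0, from -0.39 to 0.54, with a median of 0.26. Among the 6 pairs, the 6 widespread partners, Cox4i1, Cox6a1, Cox6b1, Cox7a2, Cox8a and Ndufa4, lay between -0.09 and 0.06, with a median of 0.00014. For each partner the 95% interval lay within a factor of 1.2. The sets also differed in brightness, with a median level of 7.435 for the 6 alternative isoforms and 14.03 for the 6 partners. Over all genes 62.6% lay above 0, with a median change of 0.05. At a mean of 12 or more it was 48.9% of genes, with a median of -0.0039. The difference between the sets was not tested, nor was the part of brightness in it.

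Cox4i2 read 7.72, 7.28, 7.33 and 7.78 in wild type and 8.19, 7.78, 8.02 and 8.31 in mutant arrays. Only mutant array 2 touched the wild type range, and the change was 0.54 ± 0.15 (SE) or 1.46-fold, with a limma adjusted p of 0.163. Its partner Cox4i1 read 13.79 ± 0.037 and 13.78 ± 0.040 (SD, n = 4 each), a change of -0.0090 with a 95% interval from -0.146 to 0.128.

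Ndufa4l2 had the smallest p of all members. It read 5.90, 5.92, 5.77 and 5.53 in wild type and 6.27, 6.18, 6.28 and 6.44 in mutant arrays, which did not overlap. The change was 0.51 ± 0.10 (SE; limma adjusted p = 0.0887). These values lay near background: the Y-linked gene Eif2s3y read up to 5.37 in the arrays with female expression, and Xist up to 6.54 in those with male expression. The size for Ndufa4l2 is therefore uncertain, and so are those of Cox8b and of the testis forms Cox8c and Cox7b2.

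Cox6a2 read 9.45, 8.80, 8.97 and 9.58 in wild type and 9.24, 9.83, 9.62 and 9.83 in mutant arrays. The groups overlapped through mutant array 1, with a change of 0.43 ± 0.20 (SE; limma adjusted p = 0.303), and a further probe set gave 0.39. Cox8b read 6.37, 6.36, 6.49 and 6.40 in wild type and 6.77, 6.47, 6.69 and 6.70 in mutant arrays, a change of 0.25 ± 0.082 (SE; limma adjusted p = 0.2). Cox6b2 read 12.88 in wild type and 13.03 in mutant cells, far brighter than the other alternative isoforms, and differed by 0.15. Cox7a1 differed by 0.15, with an SE of 0.19. Cox8c differed by 0.26 and Cox7b2, at 4.08 and 3.69, was not above background in either genotype. Supercomplex factor Cox7a2l gave -0.06, -0.07 and -0.10 on its 3 probe sets. Without the 7 alternative isoforms of complex IV its median was 0.02, with 6 of 10 genes above 0.

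**Figure D2:**
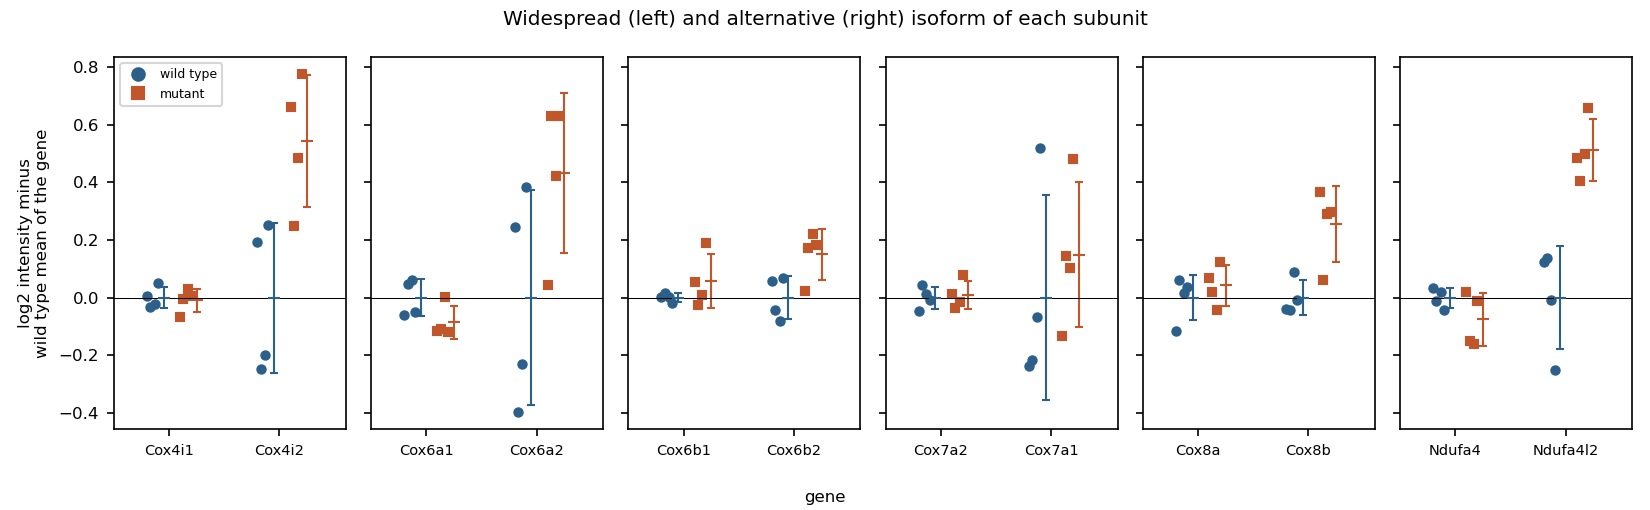
Log2 intensity of 6 subunits' widespread (left) and alternative (right) isoforms in each array, as the difference from the gene's own wild type mean (vertical axis); circles are wild type and squares mutant arrays, with mean and SD bars (n = 4 each). The mutant means of the widespread isoforms lie between -0.09 and 0.06, while Cox4i2 and Ndufa4l2 lie higher in mutant arrays by 0.54 and 0.51.

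Markers of muscle and heart were read beside these isoforms. Of 8 such genes 6 lay above 0, with a median of 0.18, and their mean level lay between 5.95 and 6.03 in wild type and between 6.08 and 6.14 in mutant arrays. Myoglobin (Mb) read 6.06 and 6.41 and the myosin gene Myh6 4.81 and 4.93 in the genotypes, levels near background. The cardiac troponin gene Tnni3, which read further above background, went the other way, from 8.88 to 8.49 (limma adjusted p = 0.273), and the actin gene Acta1 differed by -0.05. Their part in the isoform values was not tested.

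The ATP synthase, complex V, was the flattest. Its 17 genes had a median change of 0.03, between -0.05 and 0.15, and 0 of 17 had an unadjusted limma p under 0.05. For 16 of the 17 the 95% interval lay within a factor of 1.2. Atp5k, a small membrane subunit, read 14.16, 14.04, 14.08 and 14.35 in wild type and 14.30, 14.26, 14.27 and 14.40 in mutant arrays. Wild type array 4 reached the mutant values, and the change was 0.15 ± 0.084 (SE; limma adjusted p = 0.392). Atp5c1, the rotor subunit gamma, and Atp5pb, of the peripheral stalk, had non-overlapping groups, but changes of only 0.10 and 0.06 (limma adjusted p of 0.421 and 0.589), and a further probe set of each gave -0.25 and -0.10. Atp5l, a membrane subunit, differed by 0.07, and the lowest was Atp5j2 at -0.05. Averaging the probe sets of each gene brought the median of complex V to 0.003375.

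Atp5g1, Atp5g2 and Atp5g3 encode the same proton-carrying subunit c with different leader peptides. Atp5g1 read 13.98 ± 0.016 and 14.01 ± 0.10 in wild type and mutant cells, Atp5g2 13.74 ± 0.022 and 13.76 ± 0.029, and Atp5g3 14.48 ± 0.056 and 14.45 ± 0.055 (SD, n = 4 each). Their changes of 0.03, 0.03 and -0.02 were all smaller than their SE (limma adjusted p from 0.814 to 0.874).

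Respiratory gene promoters are known for sites of Nrf1, of Ets factors such as Gabpa, and of Yy1. RefSeq promoter windows (GRCm38.p6, 250 bases before to 50 after a start) were found for 68 of the 84 members. The letters searched on both strands were GCGCATGC for Nrf1, CCGGAAG for Ets factors and AAGATGGC for Yy1, and matches may overlap. At least 1 of the motifs was present for 30 of 68 members (44.1%), against 21.7% of the 14367 array genes with a window and 14.9% of all 27025 genes with one. Their median GC content was 58.8%, against 58.7% for the array genes. Nrf1 letters were present in 14.7% of members and 4.7% of array genes, Ets letters in 25% and 15%, and Yy1 letters in 13.2% and 4.09%. Of the alternative isoforms 4 had a window, and 0 of them held a motif.

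The 120 bases before the start are shown for complex II, whose genes lay highest together, and for the subunit c genes, which make the same protein from different promoters. Matches are in capitals, Sdhc is not shown, and each sequence runs 5′ to 3′ on the gene's strand in GRCm38.p6. They lie at chr13:74350241-74350360 (minus strand, Sdha), chr4:140961151-140961270 (plus, Sdhb), chr9:50603850-50603969 (minus, Sdhd), chr11:96075632-96075751 (minus, Atp5g1), chr15:102671048-102671167 (minus, Atp5g2) and chr2:73911327-73911446 (minus, Atp5g3).
Sdha: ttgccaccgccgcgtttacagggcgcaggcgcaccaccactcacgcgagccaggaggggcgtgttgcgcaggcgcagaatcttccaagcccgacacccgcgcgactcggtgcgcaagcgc
Sdhb: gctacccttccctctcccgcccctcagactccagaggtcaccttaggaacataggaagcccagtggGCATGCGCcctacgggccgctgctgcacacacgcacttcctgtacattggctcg
Sdhd: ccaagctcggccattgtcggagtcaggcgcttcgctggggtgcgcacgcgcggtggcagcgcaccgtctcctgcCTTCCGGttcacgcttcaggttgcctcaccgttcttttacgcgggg
Atp5g1: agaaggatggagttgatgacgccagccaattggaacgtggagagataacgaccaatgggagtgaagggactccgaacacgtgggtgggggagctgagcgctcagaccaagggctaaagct
Atp5g2: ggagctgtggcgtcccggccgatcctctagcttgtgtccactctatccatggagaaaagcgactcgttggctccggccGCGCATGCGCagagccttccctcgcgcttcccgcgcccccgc
Atp5g3: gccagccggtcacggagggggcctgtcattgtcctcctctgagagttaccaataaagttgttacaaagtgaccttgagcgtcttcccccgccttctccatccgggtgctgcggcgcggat
In these stretches Sdhb and Atp5g2 held Nrf1 letters and Sdhd held Ets letters, while Sdha, Atp5g1 and Atp5g3 held none of the 3 exact strings. Only exact matches were searched, so other forms of these sites may be present in any of the stretches. Sdhb also held Ets letters after its start, from base 6 to base 12, outside the bases shown. Between genotypes Sdhb differed by 0.18, Sdhd by 0.19 (-0.02 on its further probe set) and Sdha by 0.07. Atp5g1, Atp5g2 and Atp5g3 differed by 0.03, 0.03 and -0.02. Whether the motifs bear on these changes was not tested.

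The small differences were shared unevenly by the arrays. For each array the deviation of every gene from its wild type mean was averaged over the 84 members. This mean was -0.0018, -0.0047, -0.033 and 0.039 in wild type arrays 1 to 4 and 0.084, 0.026, 0.043 and 0.14 in mutant arrays 1 to 4. Mutant arrays 1 and 4 stood apart, and mutant array 2 lay under wild type array 4. Over all genes the mutant arrays read 0.042, 0.044, 0.063 and 0.052. Of the 5 complexes only complex II had all mutant arrays (0.072 to 0.203) above all wild type arrays (-0.055 to 0.043) by this mean. By the median over its 4 genes they overlapped, with wild type array 2 at 0.0866 and mutant array 2 at 0.0728. Without mutant array 4 the median of the members was 0.03, and 4 in place of 10 had an unadjusted limma p under 0.05. That count also dropped to 6 when wild type array 1 or array 3 was left out, and to 6 with sex as a covariate.

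**Figure D3:**
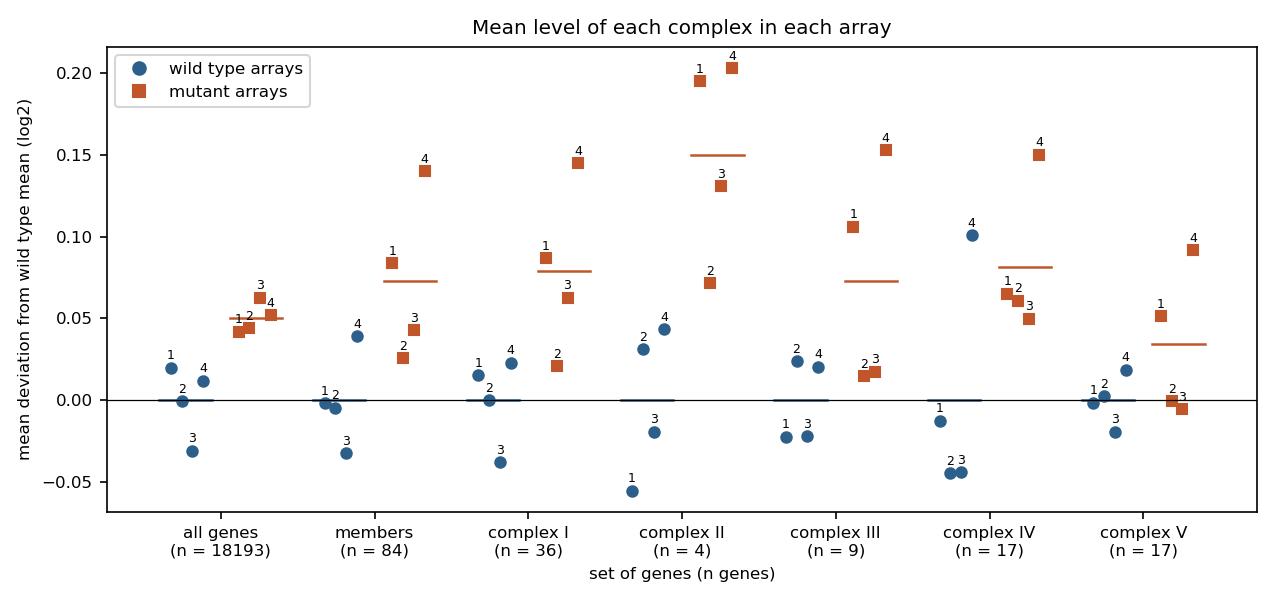
Mean deviation from the wild type mean (log2, vertical axis) in each of the 8 arrays, numbered, for all genes, the 84 members and each complex; circles are wild type, squares mutant arrays and bars group means. Mutant array 4 is highest in every set of members, and of the complexes only II has all mutant means above all wild type means, which its medians do not show.

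Markers of maturing cells varied over the same arrays. In bulk RNA more cells of a type and more transcript per cell cannot be told apart. Of 15 erythroid marker genes 14 lay above 0, with a median of 0.54, and their mean level lay between 8.71 and 9.42 in wild type and between 9.26 and 10.18 in mutant arrays. Relative to the wild type mean they stood at 0.22, 1.14, 0.73 and 0.75 in mutant arrays 1 to 4, highest in array 2. Granulocyte and monocyte markers stood at 0.489, 0.586, 0.135 and 0.699 in the same arrays. These markers were highest in array 4, where the respiratory genes were also highest, and next in array 2, where the respiratory genes were lowest. In wild type array 4, highest of the wild type arrays for the respiratory genes, these markers stood at -0.115. Markers of LSK cells stood at -0.096, 0.0117, -0.0793 and -0.204, lowest in array 4 and highest in array 2. Macrophage and dendritic cell markers stood at 0.223, 0.642, 0.721 and 0.412, highest in array 3. Megakaryocyte markers stood at 0.419, 0.554, 0.504 and 0.0438, lowest in array 4. The lists did not rank the arrays alike. Of 18 macrophage and dendritic cell markers 17 lay above 0, and the changes of the list ran from -0.993 to 1.176. Its mean levels were 8.54 to 8.95 in wild type and 8.96 to 9.46 in mutant arrays. Granulocyte and monocyte markers (9 of 11 above 0) ran from 12.24 to 12.91 and from 12.76 to 13.32, and megakaryocyte markers (12 of 12) from 8.63 to 9.17 and from 8.92 to 9.43. Of 10 markers of LSK cells 2 lay above 0, at 12.58 to 12.67 and 12.43 to 12.64. The part of these cells in the respiratory gene values was not tested.

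ND5, a complex I subunit encoded in mitochondrial DNA, was the 1 mitochondrially encoded subunit of 13 with a named probe set. It read 13.67, 13.57, 13.62 and 13.57 in wild type and 13.49, 13.56, 13.51 and 13.45 in mutant arrays. All mutant arrays lay below all wild type arrays, by -0.11 ± 0.063 (SE; limma adjusted p = 0.389), on the other side of 0 from most nuclear subunits.

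Assembly factors, which build the complexes without being part of them, had 35 of 48 measured genes above 0 and a median of 0.09, with 0 called. Over all genes 62.6% lay above 0, with a median of 0.05. In 7 of the 48 assembly factors the unadjusted limma p was under 0.05, all higher. Over all genes 11.9% were higher and 5.23% lower at that p. The smallest p belonged to the complex I factors Tmem186 (0.23), Acad9 (0.29) and Timmdc1 (0.29), with limma adjusted p from 0.219 to 0.226. Other complex I factors lay below 0, among them Ndufaf1 (-0.14) and Tmem126b (-0.12). Of 21 regulators of respiratory genes and of mitochondrial DNA 9 lay above 0, with a median of -0.03. Esrra, a nuclear receptor that acts on respiratory genes, read 7.86, 8.03, 7.98 and 8.03 in wild type and 8.33, 8.31, 8.18 and 8.60 in mutant arrays. The Esrra groups did not overlap, and the change was 0.38 ± 0.096 (SE; limma adjusted p = 0.137). Its coactivator Ppargc1b differed by -0.25 ± 0.13 (SE; limma adjusted p = 0.343), and the mitochondrial termination factor relative Mterf4 by -0.14.

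The citric acid cycle and pyruvate oxidation genes, which feed the chain with electrons, had a median of 0.08 with 0 called. Of these 23 genes 19 lay above 0, against 62.6% of all genes. Fumarase (Fh1), which takes the product of complex II, differed by 0.16 ± 0.066 (SE; limma adjusted p = 0.273), Pdhx, a structural part of pyruvate dehydrogenase, by 0.29 and the pyruvate dehydrogenase kinase gene Pdk3 by 0.17. The median deviations of this list in mutant arrays 1 to 4 were 0.101, 0.00425, 0.077 and 0.131, so that arrays 1 and 4 were highest, as for the respiratory genes. The means were 0.101, 0.062, 0.164 and 0.0807. The pyruvate dehydrogenase kinase gene Pdk4, named after its values were seen, read 8.67 in mutant array 3 against a wild type mean of 6.52.

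**Figure D4:**
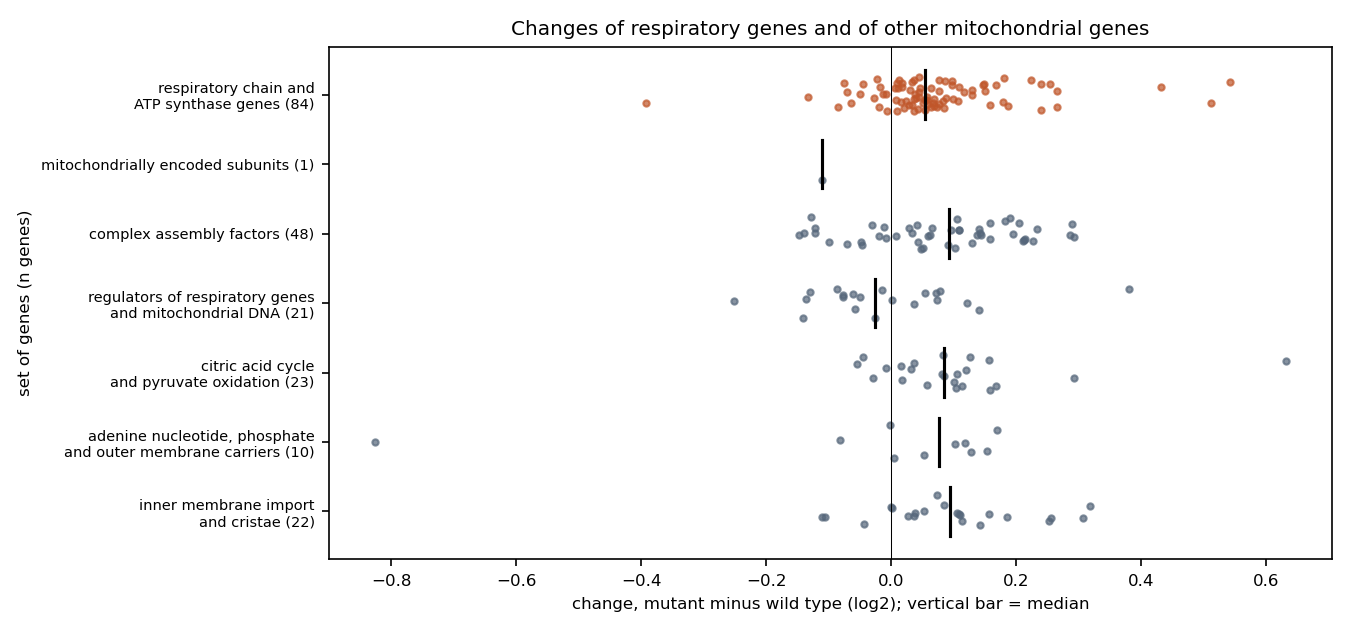
Change of each gene (mutant minus wild type, log2, horizontal axis) for the 84 respiratory chain and ATP synthase genes and for 6 lists of other mitochondrial genes, with the median as a vertical bar. The medians lie between -0.11 (ND5 alone) and 0.09, and the regulators are centred near 0.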

How the data were processed

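Cells of 8 mice, 4 wild type and 4 Jak2V617F heterozygous, were hybridised to Affymetrix mouse expression arrays after linear amplification of the RNA, per the labels. The authors deposited log2 intensities made by RMA; the submitters' processing notes name affy and R 2.11.0. The chip definition and genome build were not stated. Amplification and RMA summarisation can compress changes, which was not tested. Of 45101 probe sets 34945 had 1 gene symbol, 932 several and 9160 none, and 64 were controls. The probe set with the highest mean stood for each of 18193 genes, without a filter on low values; a filter at 7.113 would keep 78 of the 84 members.

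The deposited log2 values were fitted with lmFit and eBayes in limma 3.58.1 (R 4.3.3), with no covariate, p adjusted by Benjamini-Hochberg across the 18193 genes, called below 0.05; the procedure was tested on simulated data. SDs are over 4 arrays. Genes were named by rule: any called, the 4 with the smallest p and the lowest change in each complex, Cycs, the isoform sets, and the 3 with the smallest p in each other list. The members and lists were chosen with earlier results of these data known. The alternatives were the replicate block, median centring, the choice of probe sets, a dim filter, a trended prior, sex, the threshold, and leaving out each array.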

Additional observations from a re-analysis of the deposited data

Results flagged for a closer look

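In 6 of 114 groups of 4 arrays 1 array lay far from the other 3, by a criterion that flags about 1 group in 20 by chance. Cox6a1 read 14.31 in mutant array 3, where the nearest other mutant array read 14.2. Atp5g2 read 13.81 in mutant array 4 against 13.75 in the nearest. The mean deviation of complex IV was 0.1497 in mutant array 4 and 0.06514 in the nearest mutant array. The assembly factor gene Acad9 read 10.56 in mutant array 3 against 10.82, the pyruvate dehydrogenase gene Pdhx 10.22 in wild type array 4 against 9.967, and the import receptor gene Tomm70a 12.85 in wild type array 3 against 12.96.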

How the results depend on the processing

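No member was called under any alternative at an adjusted p of 0.05 in limma; at 0.1 there was 1, Ndufa4l2. The median change of every complex stayed above 0 in all settings run. The count with an unadjusted p under 0.05 moved most. Against 10 higher there were 6 with median centring, 6 without probe sets that can match several transcripts, 6 with sex as a covariate, 17 with a trended robust prior, 16 over all 174 probe sets of the members, and 4 to 12 when 1 array was left out. Against 1 lower there were 0 with the replicate block, without dim genes, with sex as a covariate and without the 8 tissue isoforms, 3 without probe sets that can match several transcripts, 4 over all probe sets, and 0 to 1 when 1 array was left out. Over all probe sets 127 of 174 lay above 0 and the median of complex II was 0.1146. Without mutant array 4 the median of complex V was 0.01694, and that of complex IV ran from 0.02223 without wild type array 1 to 0.07056 without mutant array 3. Without probe sets that can match several transcripts, which left 68 members, it was 0.09226 for complex IV, against 0.0424, and 0.0145 for complex V, against 0.03275; with median centring these were 0.02483 and 0.01518. The cause was not tested in any of these. The arrays of the genotypes share replicate numbers, but deviations of same-numbered arrays correlated at -0.0233, -0.221, -0.0558 and 0.103, so the numbers were not taken to pair them; with the replicate block 7 members were higher at an unadjusted p under 0.05 and 0 were called. With 4 arrays a genotype, the members' median SE was 0.0696. Ndufa10 had a similar SE of 0.0695, and the 95% interval of its change of 0.159 ran from 0.0018 to 0.316. Smaller changes at such an SE cannot be told from 0, and the members near background have no reliable size.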

Other observations

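Genes of inner membrane import and cristae, which bring nuclear-encoded subunits into place, lay above 0 in 19 of 22 cases, with a median of 0.09 and 0 called by limma. Over all genes 62.6% lay above 0. An unadjusted limma p under 0.05 occurred in 4 of the 22, all higher, against 11.9% of all genes higher. The import motor anchor Timm44 differed by 0.32, the receptor Tomm70a by 0.25 and the matrix protease Lonp1 by 0.31, with limma adjusted p of 0.214, 0.216 and 0.226. Of 10 genes for adenine nucleotide, phosphate and outer membrane carriers 7 lay above 0, with a median of 0.08, and 0 had an unadjusted limma p under 0.05. Slc25a4, an exchanger of ADP and ATP, differed by 0.15 and the ATP synthase inhibitor gene Atpif1 by 0.13. Slc25a31, the testis form of the exchanger, differed by -0.83 at levels near background.

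The LSK marker list gave a median of -0.09, and the lymphoid list 7 of 11 genes above 0 with a median of 0.06.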
